A study of Mus musculus with 32 samples.

Results

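The genes described here are 9 melanocyte growth receptors and ligands, chosen by name, not by value, with earlier results of these data known. They are 5 receptors, Kit, Ednrb, Mc1r, Erbb3 and Met, and 4 ligands, Kitl, Edn1, Edn3 and Hgf, out of 50600 genes in the deposited tables. RNA was sequenced from 32 primary melanomas of mice, 8 tumours in each of 4 groups that combine genotype and sex. Every mouse carried Tyr::NrasQ61K, an NRAS oncogene under the tyrosinase promoter, which is active in pigment cells, with Cdkn2a-/+, a loss of 1 copy of a tumour suppressor gene, and Cdh1F/F, the floxed gene of the adhesion protein E-cadherin. Ecad tumours came from males and females without Cre, written °/° in the labels. ΔEcad tumours came from males and females that also carried a Cre recombinase under the tyrosinase promoter, which deletes Cdh1 in melanocytes and leaves it in the other cells of a tumour. The labels write Tyr::NRAS/° where the study's methods give Tyr::CreA/° for this allele. The mice were on a C57BL/6J background, their ages were not given in the sources used here, and they received no treatment named in the labels.

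Melanocytes depend on paracrine signals from the cells around them. Keratinocytes and dermal cells make KIT ligand (Kitl), which binds the receptor tyrosine kinase KIT and keeps melanocytes and their precursors alive, and endothelins act through the G protein-coupled endothelin receptor B (Ednrb) on melanoblast numbers and pigmentation. The melanocortin 1 receptor (Mc1r) answers to peptides cut from the Pomc precursor and raises the synthesis of dark pigment, while ERBB3, which binds neuregulins and signals with ERBB2, and MET, the receptor of hepatocyte growth factor (Hgf), are growth receptors that melanomas also use. In the mouse several of these genes are known from coat colour mutants and from melanoma models.

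RefSeq promoter sequences on GRCm38.p6 were matched for 8 of the 9 genes, in 10 windows of 250 bases before an annotated start. Erbb3 was not matched. They were searched for the E-box hexamers CATGTG, on either strand, and CACGTG, which is the same on both strands. Over 32851 promoter windows of the same length, 12.3% held CATGTG, 6.02% held CACGTG and 17.6% held either. Among the 8 genes searched, Mc1r, Hgf and Met held at least 1, and no match was found in Kit, Kitl, Ednrb, Edn1 or Edn3. Hgf also had a window before a later start (chr5:16553651-16553900), which held no match. The Met match was CACGTG and began 126 bases before the start. The windows of Mc1r (chr8:123406832-123407081), Edn1 (chr13:42301226-42301475) and Hgf (chr5:16553245-16553494), all on the plus strand, are shown because the results below turn on these genes. Mc1r moved most with pigment cell markers, Edn1 with markers of several other cell types, and Hgf was high in a single tumour. Capitals mark the E-box matches. A match is a description of these letters and not of a bound site.
Mc1r: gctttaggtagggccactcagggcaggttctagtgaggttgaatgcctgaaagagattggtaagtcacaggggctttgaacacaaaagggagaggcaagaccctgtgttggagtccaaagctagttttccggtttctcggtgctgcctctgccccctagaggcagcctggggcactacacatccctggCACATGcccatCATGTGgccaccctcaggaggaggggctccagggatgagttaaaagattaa
Edn1: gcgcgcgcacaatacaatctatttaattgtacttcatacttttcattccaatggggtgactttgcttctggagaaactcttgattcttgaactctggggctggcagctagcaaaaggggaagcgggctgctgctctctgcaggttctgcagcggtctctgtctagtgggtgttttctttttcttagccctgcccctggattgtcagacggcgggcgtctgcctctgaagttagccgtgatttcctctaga
Hgf: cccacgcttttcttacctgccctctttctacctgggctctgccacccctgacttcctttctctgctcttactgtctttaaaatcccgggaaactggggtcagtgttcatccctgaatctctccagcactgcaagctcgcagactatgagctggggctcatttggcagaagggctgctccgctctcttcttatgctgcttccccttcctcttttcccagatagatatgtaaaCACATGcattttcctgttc
The pair of matches in Mc1r began 62 and 51 bases before the start, and the match in Hgf began 19 bases before the earlier of its starts.

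Total counts ran from 24036333 to 63923086 per tumour, with a median of 34684496.5. The targeted gene Cdh1 ran from 25 to 281.85 TPM (counts scaled for gene length and for the library total) in Ecad males and from 0.79 to 65.22 in ΔEcad males. It ran from 2.16 to 151.15 TPM in Ecad females and from 0.17 to 143.25 in ΔEcad females. The genotypes thus overlapped in each sex. In males the log2 fold change of Cdh1, ΔEcad against Ecad, was -3.33 (unadjusted p = 0.0015, adjusted p = 0.365 in edgeR). In females it was -0.002 (adjusted p = 0.999 in edgeR), so Cdh1 did not separate the female genotypes. Some libraries stood apart. The library labelled ΔEcad male 2 held 0 counts of Y-linked genes, where the other males held 1459 to 8800, and 6.41 TPM of Xist, which goes against its label. ΔEcad female 1 held 92 such counts, where the other females held 0 to 4. ΔEcad male 7 had a melanocytic marker score of -0.59, where the other tumours had 7.12 to 11.6 (mean over 8 genes of log2 CPM, counts scaled to the library total), and the highest fibroblast, mast cell and macrophage scores of the 32. Among its 8 melanocytic genes 1, Oca2, was at 0 counts, and Dct was at 4.98 TPM and Pmel at 4.98, beside medians of 11257 and 1444 TPM over all tumours. ΔEcad female 3 had the lowest endothelial, macrophage and mast cell scores, with 5 of 8 endothelial genes at 3 counts or fewer. Several results that rest on these libraries are given with and without them. In bulk tissue, fewer cells of a type and less RNA per cell cannot be told apart.

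Over all tumours the receptors stood above the ligands. Ordered by median level, Mc1r was highest at 194.1 TPM, above Erbb3 at 134.0, Met at 83.4, Ednrb at 34.7, Kit at 23.4, Kitl at 11.4, Edn1 at 2.60, Hgf at 0.41 and Edn3 at 0. Of the genes tested, 96.5% had a lower median level than Mc1r and 11.6% a lower one than Hgf. The summed receptors ran from 53.1 TPM in ΔEcad male 7 to 1456 TPM, and the summed ligands from 2.70 to 78.7 TPM, the highest in ΔEcad female 3. The receptor sum exceeded the ligand sum in 32 of 32 tumours, and all 5 receptors exceeded all 4 ligands in 20. Mc1r was the highest of the 9 in 15 tumours, Erbb3 in 10, Met in 6 and Kit in 1. Kitl was the highest ligand in 27.

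**Figure D1:**
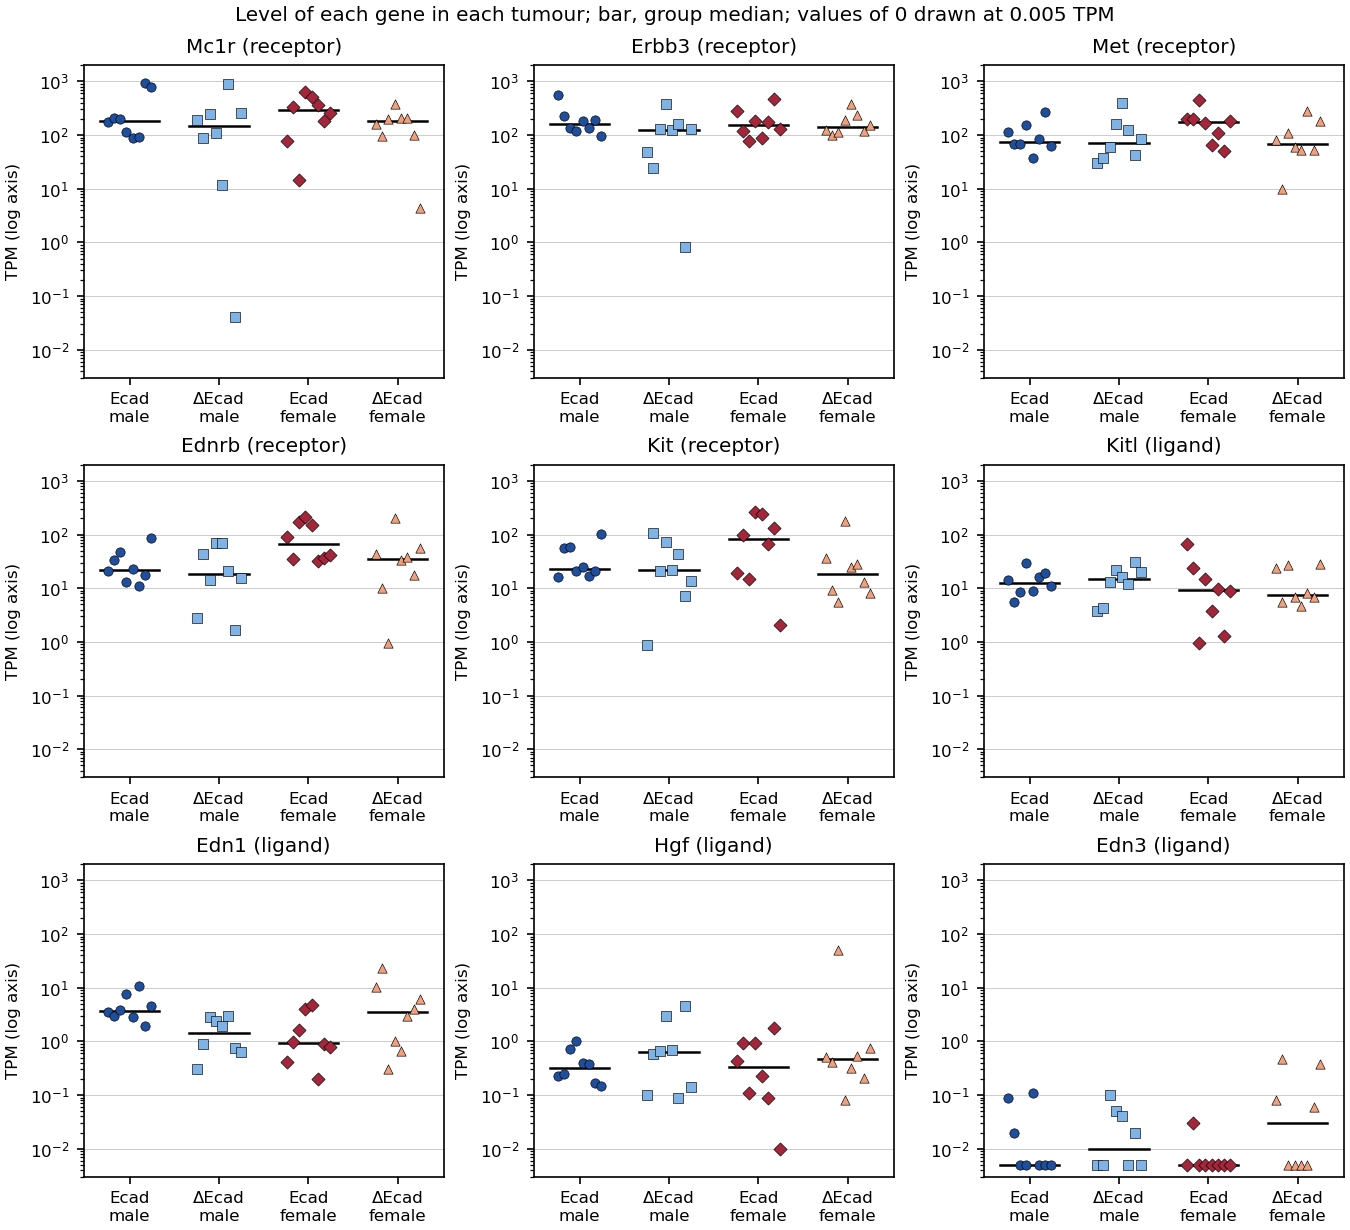
Level of each gene in each of the 32 tumours in TPM on a log axis, 8 tumours a group, with a bar at the group median and values of 0 drawn at 0.005 TPM. The groups overlap for every gene, and single tumours such as ΔEcad male 7 for Mc1r and Erbb3 or ΔEcad female 3 for Hgf stand far from the rest.

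Neighbours in this order were compared within each tumour on log2(TPM + 0.1), by a two-sided permutation test over sign flips with adjustment over 8 pairs. Mc1r did not differ from Erbb3 beyond the spread (mean difference 0.02 on the log2 scale, adjusted p = 0.959, in order in 16 of 32 tumours), nor Erbb3 from Met (0.45, adjusted p = 0.192, 22 of 32), nor Ednrb from Kit (0.08, adjusted p = 0.874, 14 of 32). Without ΔEcad male 7, Erbb3 stood above Met by 0.65 (adjusted p = 0.0136 by the same test, 22 of 31). Met stood above Ednrb by 1.67 on this scale (adjusted p = 2.7e-05, 26 of 32). Kit stood above Kitl by 1.38 (adjusted p = 0.00445, 24 of 32). The step from Kitl down to Edn1 was 2.32 (adjusted p = 2.7e-05, 29 of 32), from Edn1 to Hgf 1.88 (adjusted p = 0.00022, 27 of 32) and from Hgf to Edn3 2.19 (adjusted p = 2.7e-05, 31 of 32). On log2(TPM + 1) these steps were 1.83, 1.00 and 0.70 (adjusted p from 2.7e-05 to 0.00306 by the same test). The size of the steps between the low ligands thus depended on the constant added to TPM.

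Kit (ENSMUSG00000005672, chromosome 5, 75574916 to 75656722, plus strand, GRCm38), the receptor of KIT ligand, ran from 16.1 through a median of 22.9 to 104 TPM in Ecad males and from 0.86 through 21.5 to 105 TPM in ΔEcad males. In females it ran from 2.09 through 82.4 to 265 TPM in Ecad tumours and from 5.64 through 18.8 to 180 TPM in ΔEcad tumours. The groups overlapped, with Ecad females 4 and 5 the highest at 265 and 247 TPM and ΔEcad male 1 the lowest. In females the fitted log2 fold change of ΔEcad against Ecad was -1.29 with a standard error (SE) of 0.82 (adjusted p = 0.500 in edgeR). Without ΔEcad female 4, the only ΔEcad female above 37.0 TPM, it was -2.50 and was not called either. In Ecad tumours the difference of females over males was 1.32 (SE 0.82, adjusted p = 0.436 in edgeR), and in ΔEcad tumours it was 0.01, which became -1.21 without ΔEcad female 4. Without ΔEcad male 2, the highest ΔEcad male for Kit, the latter was 0.67. The genotype difference in males went from 0.03 to -0.63 without that tumour. The interaction (the female genotype difference less the male) went from -1.32 to -0.65 without it, and to -2.53 without ΔEcad female 4. None of these was called.

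Ednrb (ENSMUSG00000022122, chromosome 14, 103814625 to 103844402, minus strand), the endothelin receptor of melanoblasts, which endothelial cells also carry, ran from 10.8 through 21.9 to 85.2 TPM in Ecad males and from 1.67 through 18.4 to 70.6 TPM in ΔEcad males. In Ecad females it ran from 32.3 through 66.3 to 208 TPM, and in ΔEcad females from 0.96 through 35.8 to 200 TPM. All 8 Ecad females were above 5 of the 8 Ecad males, but the groups overlapped. The difference of females over males in Ecad tumours was 1.60 on the log2 scale (SE 0.72, unadjusted p = 0.034, adjusted p = 0.266 in edgeR), and in ΔEcad tumours 0.74 (SE 0.71). The latter became -0.21 without ΔEcad female 4. ΔEcad against Ecad in females gave -0.89 (SE 0.71, adjusted p = 0.623 in edgeR), and -1.84 without that tumour. The lowest value, in ΔEcad female 3, came with that tumour's low endothelial score of -3.24, whose part in it was not tested.

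Mc1r (ENSMUSG00000074037, chromosome 8, 123407107 to 123410744, plus strand, 1 exon block), the melanocortin receptor of pigment cells, ran from 86.4 through 185 to 938 TPM in Ecad males and from 0.04 through 150 to 897 TPM in ΔEcad males. In females it ran from 14.5 through 297 to 629 TPM in Ecad tumours and from 4.35 through 181 to 374 TPM in ΔEcad tumours. The lowest value was that of ΔEcad male 7, at 2 counts, and ΔEcad male 5, ΔEcad female 8 and Ecad female 3 were the next lowest, between 4.35 and 14.5 TPM. The within-group standard deviation (SD) was 2.66 on the log2 CPM scale, wider than in 95.5% of the genes tested. Without ΔEcad male 7, an alternative chosen after seeing the data, it was 1.81, beside 1.85 for Kit. In edgeR's fit of all tumours no comparison gave a log2 fold change beyond its SE, the largest being -0.73 (SE 0.89) for ΔEcad against Ecad in females and for females against males in ΔEcad tumours. On other scales the difference of the genotypes in males, -0.19 in edgeR, was -1.78 (SE 1.34, limma voom) and -1.84 (SE 1.16, limma on log2(TPM + 0.1)), and it was not called. Females against males in ΔEcad tumours gave 0.84 in limma voom and 0.06 in edgeR without ΔEcad male 6. Its exons share 653 bases with Gm38092, a predicted transcript on the other strand that reached 13.2 TPM, and the counting is not stated to use strand, so reads of the pair are uncertain.

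Erbb3 (ENSMUSG00000018166, chromosome 10, 128567523 to 128589652, minus strand) is the neuregulin receptor of the neural crest and its descendants. It ran from 95.4 through 161 to 557 TPM in Ecad males, and from 0.83 through 125 to 379 TPM in ΔEcad males. It ran from 76.5 through 152 to 470 TPM in Ecad females, and from 98.8 through 141 to 375 TPM in ΔEcad females. Only ΔEcad males had values under 76.5 TPM, in tumours 7, 2 and 1, and the first pair of these are the libraries that stood apart. Its largest log2 fold change in edgeR was -0.54 (SE 0.56), for ΔEcad against Ecad in males. On other scales that difference was -1.31 in limma voom, -1.46 on log2(TPM + 1) and -1.59 on log2(TPM + 0.1), and females against males in ΔEcad tumours, 0.44 in edgeR, gave 1.32 and 1.45 on the TPM scales. None of these was called (adjusted p from 0.593 to 0.923 in limma).

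Met (ENSMUSG00000009376, chromosome 6, 17463800 to 17573980, plus strand), the HGF receptor, ran from 37.7 through 75.5 to 272 TPM in Ecad males and from 30.8 through 71.0 to 394 TPM in ΔEcad males. In females it ran from 51.2 through 177 to 442 TPM in Ecad tumours and from 9.68 through 69.5 to 277 TPM in ΔEcad tumours. The highest tumours were Ecad female 3 and ΔEcad male 5, and only ΔEcad female 2 was under 30 TPM. ΔEcad against Ecad in females gave a log2 fold change of -0.94 (SE 0.53, adjusted p = 0.432 in edgeR). Its within-group SD of 1.07 was the smallest of the 8 genes tested, beside a median of 0.89 over all genes tested.

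Kitl (ENSMUSG00000019966, chromosome 10, 100015630 to 100100416, plus strand), the KIT ligand, was the most abundant of the ligands. It ran from 5.55 through 12.7 to 29.2 TPM in Ecad males and from 3.69 through 14.8 to 31.0 TPM in ΔEcad males. It ran from 0.96 through 9.32 to 67.4 TPM in Ecad females and from 4.69 through 7.57 to 27.8 TPM in ΔEcad females. Both ends of its range lay in Ecad females, tumour 3 the lowest and tumour 1 the highest. In edgeR's fit of all tumours no comparison gave a log2 fold change over 0.45 in size. Without Ecad female 1 the difference of females over males in Ecad tumours went from 0.07 to -0.70, and that of the genotypes in females from -0.25 to 0.52. On other scales with all tumours the former was -0.63 (limma voom) and -0.72 (log2(TPM + 0.1)) and the latter 0.48 (limma voom), and none of these was called.

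Edn1 (ENSMUSG00000021367, chromosome 13, 42301476 to 42307990, plus strand), endothelin-1, a peptide that endothelial cells and keratinocytes secrete, had differences of opposite sign in the 2 sexes. It ran from 1.90 through 3.70 to 10.7 TPM in Ecad males and from 0.30 through 1.41 to 2.94 TPM in ΔEcad males. In females it ran from 0.20 through 0.94 to 4.74 TPM in Ecad tumours and from 0.30 through 3.51 to 23.8 TPM in ΔEcad tumours. Ecad males and ΔEcad females were thus the groups with the higher medians, with ΔEcad females 2 and 1 far up at 23.8 and 10.5 TPM (the second of these held the 92 Y-linked counts), and all groups overlapped. ΔEcad against Ecad gave a log2 fold change of 1.81 in females (SE 0.68, unadjusted p = 0.012, adjusted p = 0.158 in edgeR) and -1.47 in males (SE 0.68, unadjusted p = 0.037, adjusted p = 0.473 in edgeR). The difference between these, the interaction of genotype and sex, was 3.29 (SE 0.96, unadjusted p = 0.0017, adjusted p = 0.0651 in edgeR). It was not called, and DESeq2 called it, at 3.41 with an adjusted p of 0.0066. With 1 tumour left out at a time it was called by edgeR in 6 of 32 fits, without Ecad male 7, Ecad female 5, ΔEcad male 3 or ΔEcad female 3, 4 or 5, with adjusted p values from 0.0367 to 0.164 over the 32. Without ΔEcad female 2 the difference in females was 1.06 and the interaction 2.53. Females against males gave -1.50 in Ecad tumours (SE 0.68, adjusted p = 0.265 in edgeR) and 1.79 in ΔEcad tumours (SE 0.68, adjusted p = 0.503 in edgeR). Ecad males and ΔEcad females also had the highest median scores of every marker list except the melanocytic. The keratinocyte score had medians of 7.74 in Ecad males (range -2.92 to 9.95), 3.38 in ΔEcad males (-2.67 to 9.17), -2.46 in Ecad females (-3.87 to 5.85) and 7.94 in ΔEcad females (-3.24 to 10.3). In the same order the hair follicle medians were 0.485, -1.04, -4.15 and -0.77, and the endothelial medians 4.68, 4.45, 3.74 and 4.70. With the melanocytic and keratinocyte scores as covariates, the interaction of Edn1 was 0.98 (adjusted p = 0.826 in edgeR). The other lists were not used as covariates, and the part of any cell type was not tested. Edn1 shares 35 exonic bases with the antisense gene Gm47118.

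Edn3 (ENSMUSG00000027524, chromosome 2, 174760619 to 174784042, plus strand), endothelin-3, the ligand known to drive melanoblast expansion, was near the floor of detection. It had 0 counts in 20 of 32 tumours, which allows up to 3 counts each, and 3 counts or fewer in 26. The highest level was 0.11 TPM in Ecad males, 0.10 in ΔEcad males, 0.03 in Ecad females and 0.47 in ΔEcad females. It did not pass the filter on low counts and was not tested.

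Hgf (ENSMUSG00000028864, chromosome 5, 16553495 to 16620152, plus strand), the MET ligand of mesenchymal cells, was low in 31 tumours and high in 1. It ran from 0.15 through 0.32 to 1.02 TPM in Ecad males and from 0.09 through 0.63 to 4.58 TPM in ΔEcad males. It ran from 0.01 through 0.34 to 1.78 TPM in Ecad females and from 0.08 through 0.47 to 51.3 TPM in ΔEcad females. The value of 51.3 TPM, or 5243 counts, belonged to ΔEcad female 3, and the next highest to ΔEcad male 7. With ΔEcad female 3, ΔEcad against Ecad in females gave a log2 fold change of 3.38 (SE 1.12, unadjusted p = 0.0050, adjusted p = 0.0979 in edgeR). Without it the value was -0.52 (adjusted p = 0.796 in edgeR). Females against males in ΔEcad tumours gave 2.34 (SE 1.07, unadjusted p = 0.036, adjusted p = 0.555 in edgeR) with that tumour and -1.56 without it. In males, ΔEcad against Ecad gave 1.44 (SE 1.05, adjusted p = 0.628 in edgeR). Hgf shares 484 exonic bases with Gm43489 on its own strand, which reached 2.90 TPM.

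Of the 8 genes tested, 0 passed edgeR's quasi-likelihood test in any of the 5 comparisons, with thresholds of 0.05 on the adjusted p and 1 on the absolute log2 fold change. For ΔEcad against Ecad, that test called 1.2% of the 17717 genes tested in females and 0.0% in males. For females against males it called 0.0508% in Ecad tumours and 0.0395% in ΔEcad tumours, and for the interaction 0.0%. An unadjusted p under 0.05 was found for 2 of the 8 in the female comparison of genotypes, beside 15.3% of all genes, for 1 in males beside 10.2%, and for 2 in Ecad tumours between the sexes beside 16.0%. The count was 2 between the sexes in ΔEcad tumours beside 8.81% and 1 for the interaction beside 17.7%. These were Edn1 in all 5, Hgf in the 2 that hold ΔEcad female 3 against 1 other group, and Ednrb in Ecad tumours between the sexes. DESeq2 called Edn1 in the female comparison (1.91, adjusted p = 0.0417), where it called 7.23% of all genes, and for the interaction, where it called 6.91%. In the other 3 comparisons it called 0 of the 8, beside 0.119% of all genes in males, 5.77% between the sexes in Ecad tumours and 0.135% in ΔEcad tumours. The comparisons share their control groups and are not independent of each other.

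**Figure D2:**
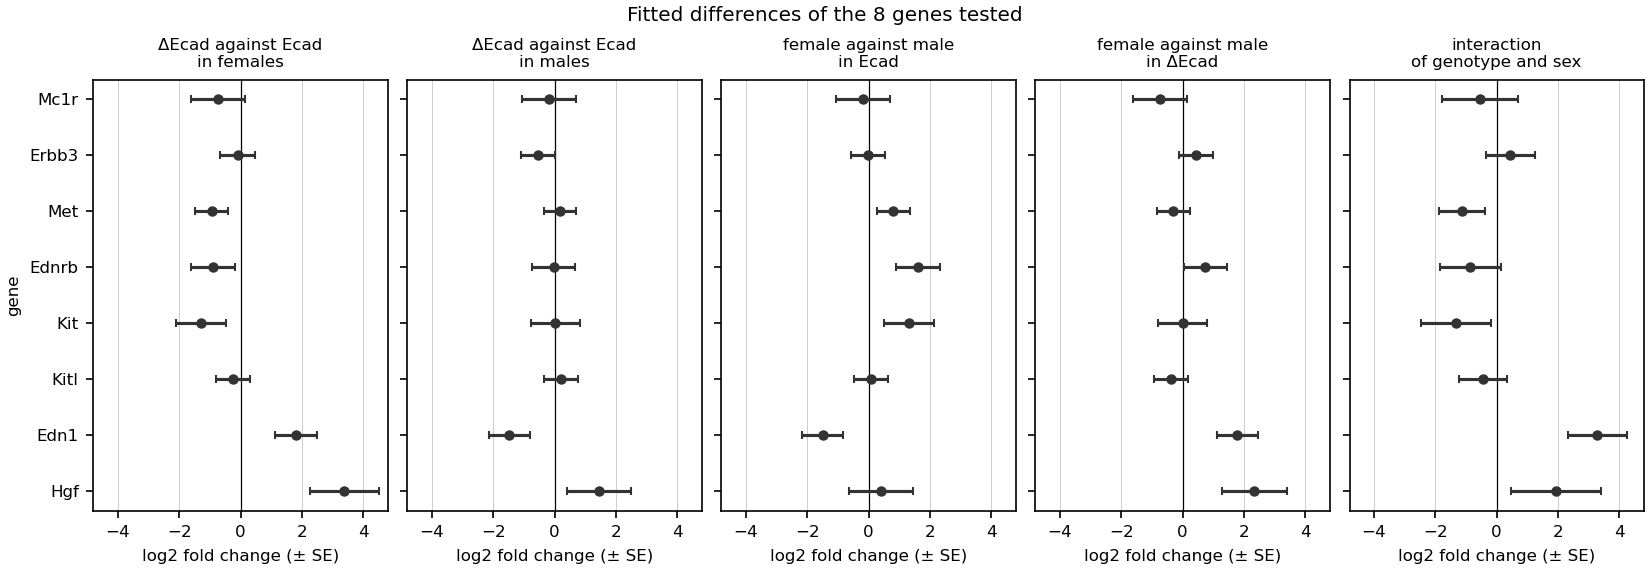
Fitted log2 fold change of the 8 tested genes in each of the 5 comparisons, as points with 1 SE on either side (edgeR, 32 tumours). Edn1 lies to the right of 0 in ΔEcad against Ecad females and to the left in males, and the widest bars are those of Hgf.

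The size of the differences can be read beside that of all genes. The median absolute log2 fold change of the 8 genes was 0.91 in the female comparison of genotypes, beside 0.35 over all genes tested, and 0.19 in males beside 0.37. It was 0.61 between the sexes in Ecad tumours beside 0.39, 0.59 in ΔEcad tumours beside 0.33, and 0.99 for the interaction beside 0.57. The female value was 0.56 with the scores as covariates (0.34 over all genes) and 0.71 without the 3 libraries that stood apart (0.39). The dispersion of the 8, edgeR's measure of spread within groups, exceeded that of 62.1% (Met) to 90.4% (Hgf) of genes tested. These medians were not matched for spread and do not show a family more changed than others. The share of a gene's spread that lay between the 4 groups was 25.9% for Edn1, 19.3% for Ednrb and 16.3% for Erbb3, and between 6.61% and 10.6% for the other 5 genes, beside a median of 9.87%. Without ΔEcad male 7 it was 24.9% for Edn1, 17.6% for Ednrb and 8.27% for Erbb3, beside a median of 10.6%. Most of the variation of these genes was between tumours of a group. Leaving out ΔEcad male 2, ΔEcad male 7 and ΔEcad female 3 together gave 0 genes called in each comparison, with Edn1 at 3.27 for the interaction (adjusted p = 0.0729 in edgeR).

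Other genes of the same pathways were read from a list of processing enzymes, further ligands, partner receptors and inhibitors, of which 30 were tested. In ΔEcad against Ecad females 4 of the 30 were called higher and 0 lower, with a median log2 fold change of 0.41 beside -0.02 over all genes, beside 1.2% of all genes called, and in the other 4 comparisons 0 were called in either direction. An unadjusted p under 0.05 was found for 11 that were higher and 2 that were lower in the female comparison, beside 15.3% of all genes, and for 0 and 2 in males beside 10.2%. The counts were 2 and 8 between the sexes in Ecad tumours beside 16.0%, 5 and 0 in ΔEcad tumours beside 8.81%, and 11 and 2 for the interaction beside 17.7%. DESeq2 called 8 higher in females beside 7.23% of all genes, 5 lower in Ecad females against males beside 5.77%, and 8 higher for the interaction beside 6.91%. The 4 that edgeR called were Spint1, a membrane inhibitor of the proteases that activate HGF, Ece1, the enzyme that cuts endothelins from their precursors, Nrg1, a neuregulin that binds ERBB3, and Mst1, an HGF relative that binds the receptor RON. Spint1 rose from a mean of 1.03 TPM in Ecad females to 21.5 in ΔEcad females (log2 fold change 4.20, SE 0.98, adjusted p = 0.0394 in edgeR). Ece1 rose from 17.1 to 62.3 TPM (1.75, SE 0.46, adjusted p = 0.0497 in edgeR). These are an inhibitor and an enzyme of the list, which holds others of each kind. Both growth factors were near absent in Ecad females. Nrg1 rose from 0.086 to 2.16 TPM (4.40, SE 1.13, adjusted p = 0.0494 in edgeR). Mst1 rose from 0.10 to 4.28 TPM (5.39, SE 1.28, adjusted p = 0.0394 in edgeR). All 4 overlapped between the groups. The keratinocyte score, given above for Edn1, had a median of 7.94 in ΔEcad females beside -2.46 in Ecad females. With the melanocytic and keratinocyte scores as covariates, the values were 1.68, 1.06, 3.59 and 0.63 and none was called. The part of any cell type in these differences was not tested. With 1 tumour left out at a time, Spint1 was called in 22 of 32 fits, Mst1 in 21, Ece1 in 13 and Nrg1 in 12, and limma voom called none of them. Without the 3 libraries that stood apart Nrg1 was no longer called (3.92, adjusted p = 0.0536 in edgeR).

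Among the direct partners of the 9 genes edgeR, with its filter on low counts, called Nrg1 alone, in females. Erbb2, the signalling partner of ERBB3, had a log2 fold change of ΔEcad against Ecad of 1.34 in females (SE 0.38, adjusted p = 0.0595 in edgeR) and -0.80 in males (SE 0.38, adjusted p = 0.480 in edgeR), with an interaction of 2.14 (adjusted p = 0.0526 in edgeR). DESeq2 called Erbb2 in females (1.41, adjusted p = 0.00912) and for the interaction (2.25, adjusted p = 0.00356), and edgeR called it in females without the filter on low counts (adjusted p = 0.0467). The interactions of Mst1 at 7.94, Nrg1 at 6.44 and Spint1 at 5.45 had adjusted p values of 0.0509, 0.0526 and 0.0526 in edgeR and were not called. DESeq2 called the 3, with adjusted p values of 6e-05, 0.0003 and 0.00045. With RLE factors or without the filter on low counts, edgeR called the interactions of these 3 and of Erbb2, at adjusted p values from 0.0465 to 0.0494, and limma voom called none of them (0.314 to 0.353). Between the sexes in Ecad tumours Mst1 was at -5.21, Spint1 at -3.68 (adjusted p = 0.0869 for both in edgeR) and Ece1 at -1.54 (adjusted p = 0.108 in edgeR). Pomc, the precursor of the MC1R ligands, and Ednra, the other endothelin receptor, were called in none of the 5 comparisons, with log2 fold changes of Pomc between -0.50 and 1.08 and of Ednra between -0.61 and 0.95. Edn2 was at 3 counts or fewer in 20 tumours and was not tested.

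Each ligand was set beside its receptor over the 32 tumours, on log2 CPM after the mean of each group was removed, with permutations within groups and adjustment over 6 pairs. Kitl and Kit gave r = -0.16 (permutation p = 0.484, adjusted 0.727, rho = -0.23), and Edn1 and Ednrb gave r = 0.35 (permutation p = 0.106, adjusted 0.212, rho = 0.27). Hgf and Met gave r = -0.07 (permutation p = 0.726, adjusted 0.871, rho = -0.10), and Edn3 and Ednrb r = 0.01 (permutation p = 0.955, rho = -0.04). None of the 4 pairs among the 9 genes passed the test. Nrg1 and Erbb3 gave r = -0.26 (permutation p = 0.0949, adjusted 0.212) and rho = -0.41 (permutation p = 0.0167, adjusted 0.0502). The pair of Pomc and Mc1r gave r = 0.53 (permutation p = 0.00376, adjusted 0.0226) and rho = 0.52 (permutation p = 0.00442, adjusted 0.0265). Pomc was low, with a median of 1.955 TPM and as few as 10 counts in a tumour. With the 2 most extreme tumours for Pomc left out r was again 0.53 (adjusted p = 0.0467 by permutation), but rho was 0.47 (adjusted p = 0.115 by permutation). Without ΔEcad male 7, whose Mc1r was at 2 counts, r was 0.47 (adjusted p = 0.0923 by permutation) and rho 0.48 (adjusted p = 0.0619 by permutation). Within the groups r for Pomc and Mc1r was 0.13 in Ecad males, 0.69 in ΔEcad males, 0.60 in Ecad females and 0.41 in ΔEcad females, 8 tumours each. Both genes also moved with the melanocytic score, at r = 0.46 for Pomc and 0.87 for Mc1r, and the part of that score in the pair was not tested. The relation of Edn1 and Ednrb was 0.11 without ΔEcad female 3, the lowest ΔEcad female for both.

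**Figure D3:**
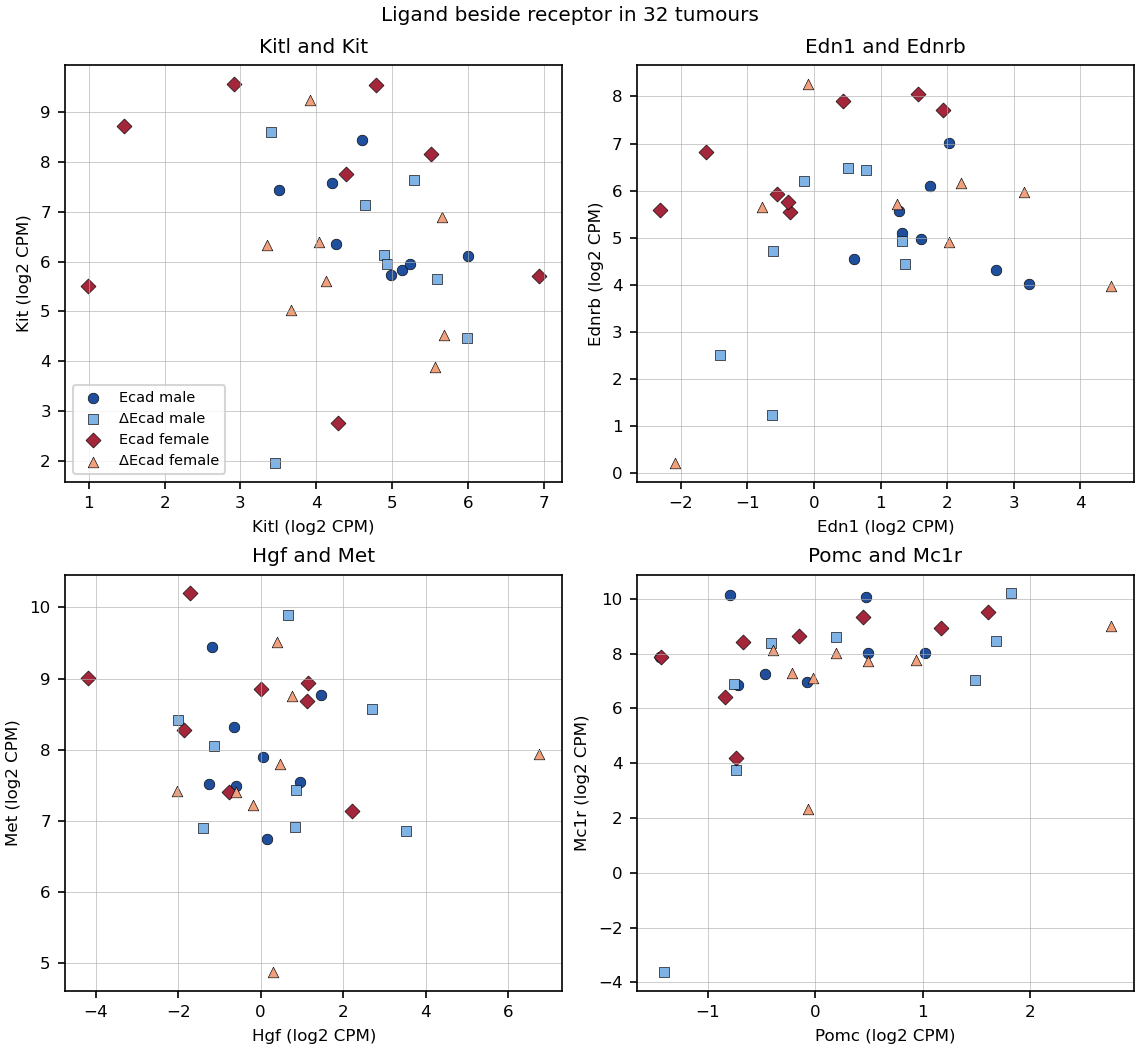
Ligand (x axis, log2 CPM) beside receptor (y axis, log2 CPM) in the 32 tumours, marked by group, for Kitl and Kit, Edn1 and Ednrb, Hgf and Met, and Pomc and Mc1r. Pomc and Mc1r show the strongest relation, at r = 0.53 with group means removed, and the lowest point for Mc1r is ΔEcad male 7.

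Receptor exceeded ligand by a median ratio of TPM of 2.35 for Kit over Kitl, with a range of 0.208 to 102 and Kit the higher in 24 of 32 tumours. Ednrb over Edn1 had a median ratio of 12.4, with Ednrb the higher in 31 tumours. The exception was ΔEcad female 2, the tumour with the most Edn1 and the highest keratinocyte score. Met over Hgf had a median ratio of 241 in the 31 tumours with over 3 counts of Hgf, and was lowest at 2.12 in ΔEcad female 3. Among the members themselves, Kit and Ednrb moved together at r = 0.61 over 32 tumours with group means removed, and at 0.60 without ΔEcad male 7. Mc1r and Erbb3 gave r = 0.66 with that tumour and 0.11 without it.

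Each gene was also set beside marker lists of 8 cell types, as a description over tumours that share their library and depth. Mc1r moved with the melanocytic list (r = 0.87, rho = 0.78, and r = 0.64 without the 2 tumours farthest from the median score). Erbb3 had r = 0.74 with that list but rho = 0.35, and r = 0.21 without the 2 tumours. The relation of Erbb3 therefore rested on these 2 tumours, 1 of which was ΔEcad male 7. Ednrb had r = 0.47 with the melanocytic list (0.39 without the 2 tumours) and 0.65 with the endothelial list (0.31 without them). Edn1 had r = 0.65 with the keratinocyte list (0.63 without the 2 tumours), 0.66 with the endothelial list (0.57 without them) and 0.57 with the fibroblast list (0.66 without them), which had the highest rho at 0.65. Its r was also positive with the hair follicle (0.58), mast cell (0.53), Schwann (0.48) and macrophage (0.47) lists, and was 0.04 with the melanocytic list. Without the 2 tumours farthest for each list, the first 4 of these were 0.47, 0.405, 0.45 and 0.17. Hgf had r = -0.45 with the melanocytic list, -0.48 with the endothelial list, which became -0.05 without the 2 tumours, and 0.41 with the fibroblast list (0.29 without them). With the macrophage list Hgf had r = -0.07 and rho = 0.39, and r = 0.58 without the 2 tumours. Kit, which mast cells also carry, had r = -0.14 with the mast cell list (-0.30 without the 2 tumours) and 0.29 with the melanocytic list (0.26 without them). Kit also had r = 0.41 with the endothelial list and 0.34 with the fibroblast list, each 0.31 without the 2 tumours. Kitl and Met had no r beyond 0.3 in size with any of the 8 lists.

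**Figure D4:**
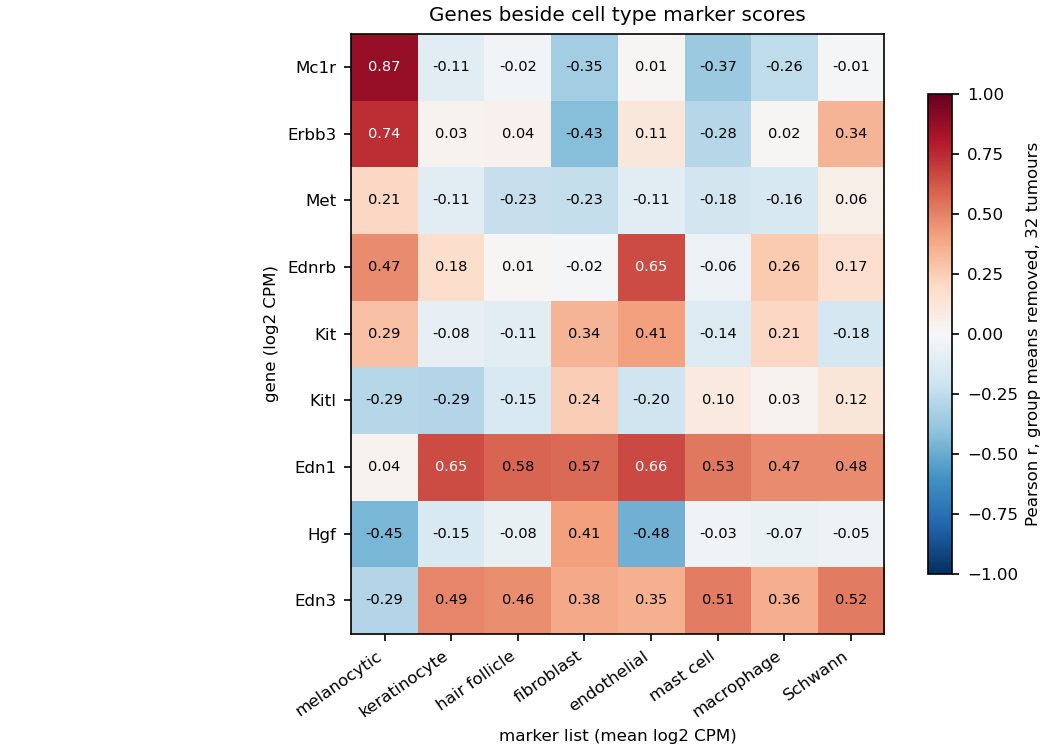
Pearson r of each of the 9 genes (log2 CPM, vertical axis) with the score of each of 8 marker lists (mean log2 CPM, horizontal axis) over 32 tumours with group means removed, drawn as a colour map from -1 to 1 with the value in each cell. The strongest cell is Mc1r with the melanocytic list at 0.87, while Edn1 has its highest values with the endothelial, keratinocyte and hair follicle lists.

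**Figure D5:**
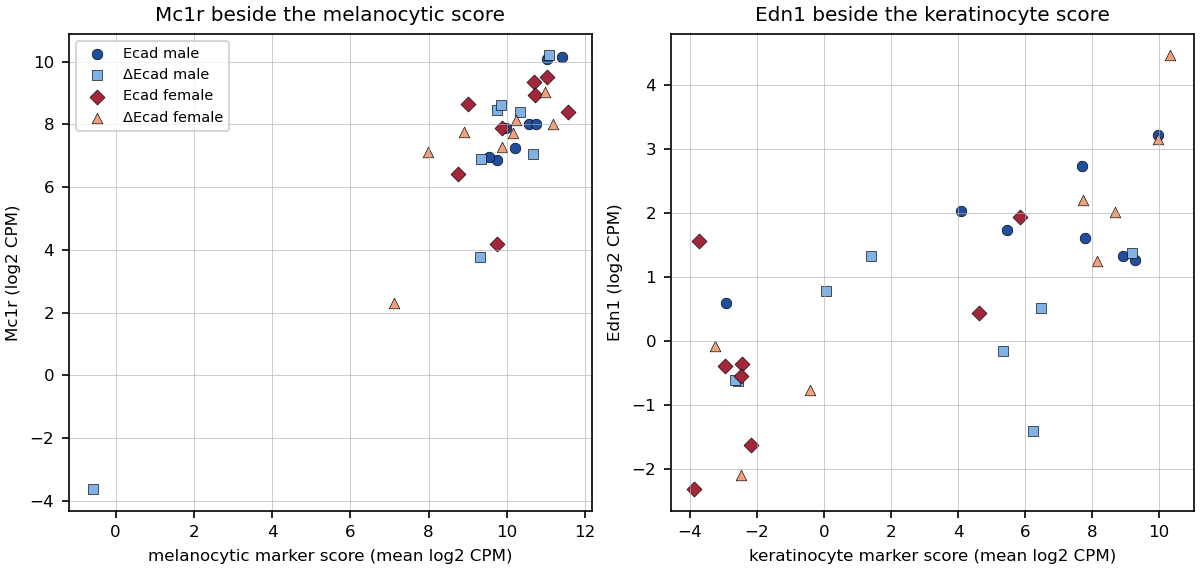
Mc1r beside the melanocytic marker score (left) and Edn1 beside the keratinocyte marker score (right) in the 32 tumours, all axes in log2 CPM, marked by group. ΔEcad male 7 is the single tumour with a melanocytic score under 0, and the Ecad females lie mostly at the low end of the keratinocyte score.

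The genes whose log2 CPM was most like each member's over the 32 tumours were read for the 3 highest r. For Mc1r these were Slc24a5 (r = 0.93, and 0.86 without ΔEcad male 7), Tyrp1 (0.88, and 0.78) and Nr1h4 (0.87, and 0.67). Slc24a5 is an exchanger of the melanosome and Tyrp1 a melanin enzyme that is also in the melanocytic list. For Erbb3 they were Sox10 (0.91, and 0.61 without that tumour), Sh3tc2 (0.90, and 0.56) and Insc (0.89, and 0.55), Sox10 being the neural crest transcription factor of the melanocytic list. For Kit they were E230013L22Rik (0.78), Rab20 (0.76) and Gm43592 (0.75), and for Ednrb Trav4-4-dv10 (0.78), Car2 (0.77) and Pip5k1b (0.76). For Met they were Ptprj (0.83), Elf2 (0.80) and Mindy2 (0.80). Among the ligands, Kitl had Fer (0.77), Plekha2 (0.75) and Zfp759 (0.74), and Edn1 had 2010300C02Rik (0.87), Crispld2 (0.86) and Pcdh1 (0.83). Hgf had Csf1 (0.83), a macrophage growth factor, Cald1 (0.83) and Vcam1 (0.80), an adhesion molecule of endothelial and stromal cells. The values for Hgf were not read again without ΔEcad female 3, the tumour where it was highest.

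In the tumours where a member stood highest, the genes next to it on the chromosome were read, a choice made after the values were seen. In ΔEcad female 3, Hgf stood 6.71 above the median of the other tumours on the log2 CPM scale. Its neighbours Cacna2d1 at 3.31 and Sema3c at 1.70 were also high there, and Cd36 at -0.98 and Gnai1 at -0.08 were not. Kit stood 3.41 above the median in Ecad female 4, beside 1.00 for Pdgfra and 0.02 for Kdr, the receptor genes on either side of it. Met stood 2.30 above it in Ecad female 3, with its neighbours Cav1 at -0.46 and Capza2 at 0.03. Mc1r stood 2.27 above it in Ecad male 7, beside 0.46 for Tcf25 and 3.74 for the overlapping Gm38092. Erbb3 stood 2.06 above it in Ecad male 1, beside -0.22 for Pa2g4 and 0.79 for Rps26. For Kit and Met at least 1 nearest neighbour thus lay close to its own median.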

How the data were processed

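RNA of 32 primary mouse tumours was extracted and sequenced from TruSeq Stranded mRNA libraries. Per the submitters' processing notes and the study's methods, reads were checked with FastQC 0.11.5 and mapped with STAR to mm10 (GRCm38.p5), and the authors deposited raw counts per gene and TPM for 50600 genes. Counting is not stated to use strand. The study describes batch correction where it applied, without saying so for these tumours, and the labels name no batch. The deposited TPM were the counts rescaled, within 0.0685% for the 996 genes best counted throughout. Gene identifiers were named from the GENCODE mouse annotation on GRCm38, which gave 50376 a symbol. Promoter sequences came from RefSeq (GRCm38.p6).

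Groups came from the labels. Replicates are separate tumours, and nothing in the labels gives litter or day, so p-values measure the spread between these tumours. Counts were tested in R 4.3.3 with the robust quasi-likelihood test of edgeR 4.0.16, two-sided, after TMM scaling and filterByExpr by group, in 1 model of 32 tumours, which kept 17717 genes. Calls needed a Benjamini-Hochberg adjusted p under 0.05 over all genes tested and an absolute log2 fold change over 1. SE were derived from the test statistic. Alternatives used DESeq2 1.42.0, limma 3.58.1 (voom, log2(TPM + 1), log2(TPM + 0.1)), RLE factors, no filter, only the groups compared, a replicate block, marker scores as covariates and 1 tumour left out at a time. Scaling moved the median of all genes: for ΔEcad against Ecad in males it was 0.11 with TMM, -0.16 on log2(TPM + 1) and -0.24 on log2(TPM + 0.1), and for the interaction -0.16 with TMM and 0.18 on log2(TPM + 1).

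Levels were ordered on TPM, and relations used log2 CPM with a prior count of 1. Permutation tests were two-sided with 100000 resamples in Python 3.11.15 with scipy 1.17.1, numpy 2.4.6 and pandas 2.3.3, and figures were drawn with matplotlib 3.10.9. A count of 0 was taken to allow up to 3 counts, a limit that covers counting error alone, as no molecular identifiers were used. No pair of tumours correlated above 0.962, and none was treated as a duplicate. The edgeR test was checked on simulated counts, for ΔEcad against Ecad in females alone. These counts had the same spread set for every gene and no tumours that stood apart. The tested members had dispersions from 0.51 (Met) to 1.66 (Hgf), so the check does not cover the spread of each member. The other fits and the permutation tests were not checked in this way.

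The members, the pathway list, the marker lists and the libraries left out were chosen with earlier results of these data known. Named were the targeted gene Cdh1, the members in every comparison, called genes of the pathway list with the 3 of smallest p in each comparison and the direct partners, and the 3 genes most like each member. The pathway list held 37 genes, of which 35 were in the table and 30 tested, and 2 are not reported here. The marker lists held 8 genes each: melanocytic, keratinocyte, hair follicle, fibroblast, endothelial, mast cell, macrophage and Schwann.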

Additional observations from a re-analysis of the deposited data

Results flagged for a closer look

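Dixon's test of the highest and the lowest tumour was run in each group of 8 for the 8 tested members, 32 sets in all, on the log2 CPM scale, by the gap to the next tumour as a ratio of the range and the 95% critical value. It found 5, where chance gives about 1 in 20 groups. In ΔEcad males the lowest tumour for both Mc1r and Erbb3 was ΔEcad male 7, at ratios of 0.534 and 0.594, the tumour with the melanocytic score of -0.59. In ΔEcad females the lowest tumour for Mc1r was ΔEcad female 8, at a ratio of 0.715 (4.35 TPM, the next at 95.5), and its melanocytic score of 7.12 was the second lowest of the 32. The highest Hgf in ΔEcad females, that of ΔEcad female 3, had a ratio of 0.682. The highest Erbb3 in Ecad males, that of Ecad male 1 at 557 TPM, had a ratio of 0.559.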

How the results depend on the processing

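The number of members called was 0 in all 5 comparisons with limma voom, limma on either log2 TPM scale, RLE factors, no filter on low counts, only the groups compared (not applicable to the interaction), no fold threshold, the replicate block and the covariates. DESeq2 called 1 in the female comparison and 1 for the interaction, both Edn1, and leaving out 1 tumour gave 0 to 1 for the interaction. The 213 genes called in ΔEcad against Ecad females became 1281 with DESeq2, 322 with RLE factors, 555 without a filter, 11 with covariates and 1 with limma voom, on either log2 TPM scale or with only the groups compared. They became 569 without the 3 libraries that stood apart, an alternative chosen after seeing the data, and ran from 1 to 695 with 1 tumour left out. Counts with DESeq2 were 21 in males, 1023 between the sexes in Ecad tumours, 24 in ΔEcad tumours and 1225 for the interaction. Leaving out 1 tumour gave 0 in males, 8 to 21 between the sexes in Ecad tumours, 7 to 8 in ΔEcad tumours and 0 to 848 for the interaction. For the interaction RLE factors gave 201, no filter 284, covariates 1 and log2(TPM + 0.1) 1. Between the sexes covariates gave 14 in Ecad tumours, and only the groups compared gave 0 in ΔEcad tumours. The cause was not tested.

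Tumour numbers did not pair the samples: 18 of 48 same-numbered pairs had a correlation of deviations over 0.1, and 1 of 32 tumours correlated best with its own number. With the number as a replicate block, 1 gene was called in the female comparison, 8 between the sexes in Ecad tumours, 7 in ΔEcad tumours and 0 in the others, and 0 members in any.

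Hgf reversed with ΔEcad female 3. Its female comparison was -0.48 with DESeq2, -0.52 without the 3 libraries, and -0.52 to 4.02 with 1 tumour left out. Between the sexes in ΔEcad tumours it was -0.79, -0.87 and -1.56 to 3.00, and for the interaction -1.17, -1.28 and -1.97 to 2.59. In males it was -0.20 with covariates. Ednrb between the sexes in ΔEcad tumours ran from -0.21 to 0.95 with 1 tumour left out, and Cdh1 between the sexes in Ecad tumours was 0.91 with covariates. Of 1672 recomputed fold changes of members, 104 changed sign, 93 of them where the value lay within 1 SE of 0, and none of the 104 had an adjusted p under 0.2908. Erbb3 stood above Met by 0.65 without ΔEcad male 7, past the threshold. Pomc and Mc1r gave 0.44 with the groups pooled, short of it after adjustment, and from 0.47 without ΔEcad male 7, also short of it, to 0.53 without ΔEcad female 3. Edn3 and Hgf are limited by depth, with few counts in most tumours.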
